A study of Mus musculus with 12 samples.

Results

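The ligands amphiregulin (*Areg*), epiregulin (*Ereg*), heparin-binding EGF-like growth factor (*Hbegf*), transforming growth factor alpha (*Tgfa*) and betacellulin (*Btc*), and the receptors *Egfr*, *Erbb2*, *Erbb3* and *Met*, were followed in S1 gastric cancer cells with and without *Rasa1* and *Nf2*. These 9 genes, 5 ligands and 4 receptors, were chosen by symbol among the 18926 genes of the deposited tables, and all 9 had enough counts to be tested. S1 is a cell line from a mouse gastric cancer of the ChetPS model, which is heterozygous for floxed *Cdh1* and homozygous for floxed *Smad4* and *Trp53*. S1 cells with stable Cas9 from a PiggyBac transposon received lentiviral sgRNAs and were selected with antibiotics, and no cloning from single cells is described. The 4 groups of 3 libraries each are control (non-targeting sgRNA), *Rasa1*-KO, *Nf2*-KO and *Nf2*/*Rasa1* double-KO, all on the ChetPS background and all with Cas9. Total RNA was depleted of rRNA and sequenced with a strand-specific kit.

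The cells were grown as tumorspheres, floating clusters in serum-free medium with 50 ng/ml epidermal growth factor, or in a commercial tumorsphere medium, so in the first medium a ligand of EGFR was supplied to every group. The labels call the cells a monolayer, whereas the methods describe tumorspheres. Each point of the RNA-seq plots of the study is named a technical replication, so every SD and p-value here measures the spread between libraries, which may be technical. Total counts were between 43818139 and 96674463 per library. Each member had at least 176 counts in every library. Levels in CPM below are counts scaled to the library total and by TMM, and a level of RNA in bulk cells cannot tell fewer expressing cells from less RNA per cell.

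The targeted genes go against part of the labels. *Nf2* had a mean of 58.2 ± 2.82 CPM (SD, n = 3) in control and 13.6 ± 0.631 CPM in *Nf2*-KO. Under the *Rasa1*-KO label it had 11.9 ± 0.253 CPM, and under the double-KO label 58.9 ± 3.30 CPM. *Rasa1* had 71.3 ± 9.54 CPM in control, 98.5 ± 2.21 CPM in *Nf2*-KO, 31.9 ± 2.27 CPM under the *Rasa1*-KO label and 20.5 ± 2.80 CPM under the double-KO label. The names of the deposited tables exchange the same pair of groups. The groups are therefore called *Rasa1*-KO-labelled and double-KO-labelled throughout: by their RNA, both targeted genes were low in the first and only *Rasa1* in the second. Exchanging the labels leaves each library's values as they are and changes only the names of the groups and the departure from additivity.

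A pair of libraries also stood apart: the control library without a number in its title and library 1 of the double-KO label. Without both, 5433 of 18169 genes passed the test between double-KO-labelled and control, against 1166 of 18053 with all libraries. For the members, results that rest on them are given with and without them. Marker genes, genes around the receptors and genes beside the members on the chromosomes are given with all libraries only.

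Of 7 listed epithelial markers, 5 were in the tables, and *Cldn7* and *Esrp1* were not analysed here. Keratin genes were high in every library. The summed FPKM (counts per transcript length and mapped reads) of the 5 epithelial markers was between 2044 and 4146, led by *Krt8*. The sum is carried by keratins and hides *Epcam*, the epithelial adhesion molecule, at 0.34-fold, 0.16-fold and 0.56-fold of control in *Rasa1*-KO-labelled, *Nf2*-KO and double-KO-labelled libraries (edgeR adjusted p = 5.63e-05, 1.01e-06 and 0.0173). It also hides the epithelial transcription factor *Elf3*, at 0.33-fold in *Nf2*-KO (edgeR adjusted p = 0.000101). The markers moved both ways: 3 of the 5 rose and 1 fell in *Rasa1*-KO-labelled, 0 and 2 in *Nf2*-KO, and 1 and 1 in double-KO-labelled libraries. *Krt18* and *Krt19* were 1.77-fold and 1.62-fold of control in *Rasa1*-KO-labelled (edgeR adjusted p = 0.0061 and 0.00397). In double-KO-labelled libraries *Krt19* was 1.64-fold (edgeR adjusted p = 0.0179). Of 7 listed gastric markers, *Muc6* and *Gkn1* were not analysed here. The gastric markers *Muc5ac*, *Tff1*, *Tff2*, *Cldn18* and *Sox2* were low, between 0.792 and 5.999 FPKM in sum. The mucin gene *Muc5ac* was at 0.064-fold, 0.045-fold and 0.26-fold of control in *Rasa1*-KO-labelled, *Nf2*-KO and double-KO-labelled libraries (edgeR adjusted p = 3.63e-05, 1.28e-05 and 0.0138). *Tff1* went the other way in *Rasa1*-KO-labelled, at 4.75-fold of control (edgeR adjusted p = 0.0172), from 0.475 to 2.20 CPM. The part of these in the results below was not tested. Of the fibroblast markers, 5 were in the tables (*Col1a1*, *Col1a2*, *Pdgfra*, *Pdgfrb* and *Dcn*). Their summed FPKM was between 15.9 and 48.5 in control, 36.3 and 44.1 in *Rasa1*-KO-labelled, 115 and 132 in *Nf2*-KO, and 7.76 and 9.15 in double-KO-labelled libraries. In both *Rasa1*-KO-labelled and *Nf2*-KO, 4 of the 5 rose (19.7% and 20.6% of all genes) and 1 fell (22.2% in each). *Col1a2* was 154-fold and 707-fold of control there (edgeR adjusted p = 2.69e-06 and 3.83e-07), from 0.227 CPM. *Pdgfra* was 9.71-fold and 21.9-fold (adjusted p = 0.00451 and 0.000772), *Col1a1* 6.32-fold and 32.1-fold (0.0154 and 0.000583) and *Pdgfrb* 3.31-fold and 7.70-fold (0.0283 and 0.00188). In double-KO-labelled libraries 0 rose and 1 fell (6.46% of all genes called). The part of this in the results below was not tested. Of the leukocyte markers, *Ptprc*, *Cd68* and *Csf1r* were in the tables and only *Cd68* reached a mean of 1 FPKM. Its group means were between 5.53 FPKM in control and 15.3 FPKM in *Rasa1*-KO-labelled. *Cd68* was 2.99-fold and 2.02-fold of control in *Rasa1*-KO-labelled and *Nf2*-KO (edgeR adjusted p = 0.000718 and 0.00908). *Csf1r* was 1.87-fold in *Nf2*-KO (edgeR adjusted p = 0.0373), from 1.41 to 2.62 CPM. The endothelial markers *Pecam1*, *Kdr* and *Vwf* summed to at most 0.466 FPKM, and none of these marker genes was at 0. At these low levels, *Pecam1* was 0.36-fold and 0.32-fold of control in *Rasa1*-KO-labelled and *Nf2*-KO (edgeR adjusted p = 0.00814 and 0.00417). *Kdr* was 2.55-fold and 2.43-fold there (edgeR adjusted p = 0.0217 and 0.0266).

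EGF-family ligands are made as membrane-anchored precursors that proteases of the ADAM family shed. AREG and TGFA bind EGFR, whereas EREG, HBEGF and BTC bind EGFR and ERBB4. ERBB2 has no known ligand and ERBB3 has a weak kinase, so both signal by pairing with other ERBB receptors, and MET is the receptor of hepatocyte growth factor. All of these receptors feed Ras, which the GTPase-activating protein RASA1 switches off. NF2 (merlin) restrains YAP and TAZ through the Hippo pathway, and *Areg* is a known target of YAP and TAZ.

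*Ereg*, *Areg* and *Btc* are neighbors on mouse chromosome 5 (GRCm38.p6). *Ereg* lies at chr5:91074617-91093649, *Areg* at chr5:91139599-91148432 and *Btc* at chr5:91357261-91402994, with 45949 bp between *Ereg* and *Areg* and 208828 bp between *Areg* and *Btc*. *Areg* was the member that rose most and *Btc* the only ligand that fell, so the 250 bases before the start of each are shown, 5′ to 3′, from the RefSeq promoters of GRCm38.p6. The first is chr5:91139349-91139598 on the plus strand and the second chr5:91402995-91403244 on the minus strand, and capitals mark a match to a searched motif.

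Areg: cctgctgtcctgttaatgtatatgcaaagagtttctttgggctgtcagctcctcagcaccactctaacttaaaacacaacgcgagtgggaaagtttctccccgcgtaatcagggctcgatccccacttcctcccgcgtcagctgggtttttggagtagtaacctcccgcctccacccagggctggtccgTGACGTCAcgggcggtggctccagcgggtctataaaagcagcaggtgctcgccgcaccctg
Btc: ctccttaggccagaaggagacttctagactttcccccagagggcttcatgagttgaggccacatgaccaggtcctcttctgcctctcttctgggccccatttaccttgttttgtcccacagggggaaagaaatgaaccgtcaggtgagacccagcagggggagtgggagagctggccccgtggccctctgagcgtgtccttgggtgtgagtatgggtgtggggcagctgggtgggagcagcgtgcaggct

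The motifs searched on both strands were TGACGTCA (the cAMP response element, CRE), TGANTCA (AP-1) and GGAATG (TEAD), and CRE and AP-1 share their outer letters but cannot match at the same bases. TGACGTCA was found in the *Areg* window, its first base 61 bases before the start, and in 1.62% of all 27025 promoters. The *Btc* window held none of the 3 motifs. Promoters were found for 6 of the 9 members. Besides *Areg*, the *Met* window held TGANTCA, which 6.87% of all promoters hold, and the *Erbb2* window held GGAATG, which 12.6% hold. The windows of *Tgfa* and *Egfr* held none of the 3. No match says only that these letters are not in the 250 bases.

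Over the 4 groups, 7 of the 9 members differed (edgeR's quasi-likelihood test, Benjamini-Hochberg adjusted p under 0.05), against 46.3% of all genes tested. *Egfr* (adjusted p = 0.0954) and *Erbb3* (adjusted p = 0.0757) did not pass. All adjusted p-values below are from this edgeR fit over the whole table of 18053 genes.

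Against control, the ligands split in the same way in *Rasa1*-KO-labelled and *Nf2*-KO cells: *Areg*, *Ereg*, *Hbegf* and *Tgfa* rose and *Btc* fell in each. In double-KO-labelled cells, only *Areg* rose and no member fell. In *Rasa1*-KO-labelled libraries 7 of 9 members were called, against 41.9% of all genes. Of these 4 were higher, against 19.7% of all genes, and 3 lower, against 22.2%. In *Nf2*-KO, 8 of 9 were called, against 42.8% of all genes, with 4 higher (20.6% of all genes) and 4 lower (22.2%). In double-KO-labelled libraries 1 of 9 was called, against 6.46% of all genes. The 3 comparisons share the control libraries, so their likeness is not independent.

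**Figure D1:**
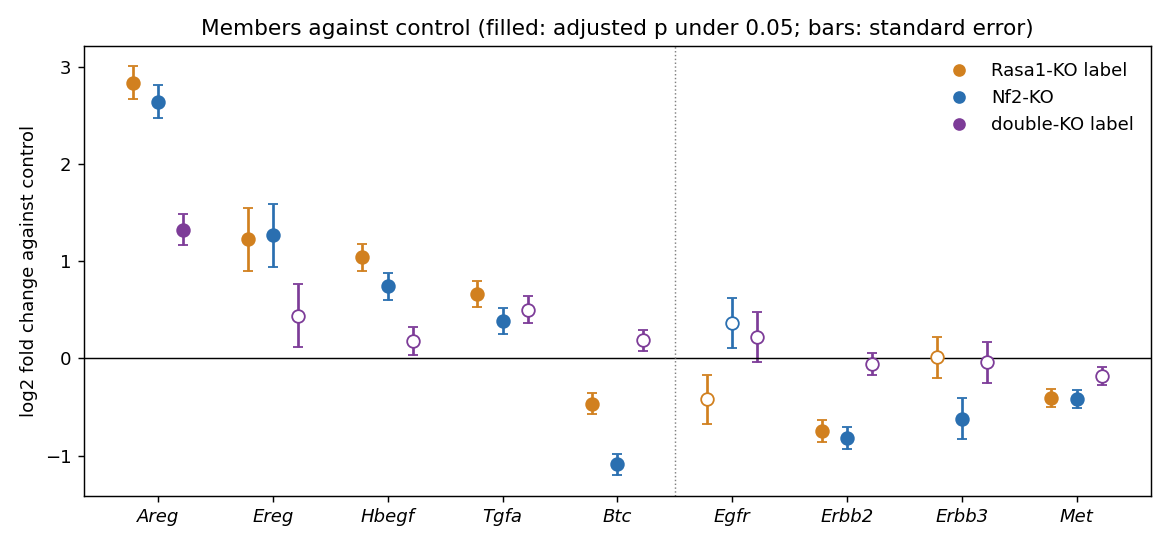
Log2 fold change of each member against control in *Rasa1*-KO-labelled, *Nf2*-KO and double-KO-labelled libraries, from the edgeR fit. Points are estimates, bars standard errors, and filled points have an adjusted p under 0.05. *Areg* is the highest point in each group, 4 ligands lie above 0 and *Btc* below in the first 2 groups, and no filled receptor lies above 0.

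*Areg*, a ligand of EGFR alone, had the widest range. It had 3.57, 4.32 and 3.49 CPM in the control libraries (unnumbered, 1 and 2), 27.96, 26.0 and 27.5 CPM in *Rasa1*-KO-labelled, 21.6, 24.0 and 25.6 CPM in *Nf2*-KO, and 7.20, 10.3 and 11.1 CPM in double-KO-labelled libraries. No groups overlapped: control was lowest, double-KO-labelled next, and *Nf2*-KO lay just below *Rasa1*-KO-labelled. *Areg* rose 7.15-fold in *Rasa1*-KO-labelled (log2 fold change 2.84 ± 0.17, SE; adjusted p = 4.16e-07) and 6.25-fold in *Nf2*-KO (2.64 ± 0.17; adjusted p = 3.83e-07). It rose 2.51-fold in double-KO-labelled libraries (1.33 ± 0.16; adjusted p = 0.000892). The last call was lost when only these 2 groups were fitted (adjusted p = 0.0974), where 18 genes in all were called. The small difference between *Rasa1*-KO-labelled and *Nf2*-KO did not pass (1.14-fold, adjusted p = 0.652).

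*Areg* was the only member to pass the rule of the study, a fold change of at least 3 with a raw p under 0.05. It passed in *Rasa1*-KO-labelled, where 9.27% of all genes did, and in *Nf2*-KO, where 11.4% did. In double-KO-labelled libraries, where 2.03% of all genes passed, no member did.

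*Ereg*, the next gene on the chromosome, gave 6.06, 19.7 and 18.7 CPM in control, 35.3, 34.7 and 33.8 CPM in *Rasa1*-KO-labelled, 33.1, 38.8 and 34.9 CPM in *Nf2*-KO, and 16.4, 21.3 and 22.5 CPM in double-KO-labelled libraries. The unnumbered control library was far below the other 2 controls, and double-KO-labelled overlapped control. *Ereg* rose 2.34-fold in *Rasa1*-KO-labelled (log2 1.23 ± 0.33; adjusted p = 0.0112) and 2.40-fold in *Nf2*-KO (log2 1.27 ± 0.33; adjusted p = 0.00891). Without the unnumbered control library the log2 changes were 0.85 and 0.89, both still called. With only the groups compared in the fit, they were not called (adjusted p = 0.061 and 0.0674). In double-KO-labelled libraries the change was 1.36-fold (adjusted p = 0.477).

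*Hbegf*, whose precursor also serves as the receptor of diphtheria toxin, had 46.5, 44.8 and 34.2 CPM in control, 86.5, 85.9 and 85.7 CPM in *Rasa1*-KO-labelled, 67.5, 70.7 and 71.7 CPM in *Nf2*-KO, and 37.9, 53.8 and 50.5 CPM in double-KO-labelled libraries. Double-KO-labelled overlapped control, and the other groups lay above both. The rise was 2.06-fold in *Rasa1*-KO-labelled (log2 1.04 ± 0.14; adjusted p = 0.000175) and 1.67-fold in *Nf2*-KO (log2 0.74 ± 0.14; adjusted p = 0.00148). In double-KO-labelled libraries the change of 1.13-fold did not pass (adjusted p = 0.511), but without both libraries that stood apart it was called (log2 0.40, adjusted p = 0.0169).

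*Tgfa*, the classical autocrine ligand of EGFR, had 30.1, 38.6 and 44.5 CPM in control, 58.9, 62.3 and 58.4 CPM in *Rasa1*-KO-labelled, 54.3, 47.2 and 46.2 CPM in *Nf2*-KO, and 48.3, 56.1 and 55.9 CPM in double-KO-labelled libraries. All 3 groups lay above every control library. The rise was 1.59-fold in *Rasa1*-KO-labelled (log2 0.67 ± 0.14; adjusted p = 0.00252) and 1.30-fold in *Nf2*-KO (log2 0.38 ± 0.14; adjusted p = 0.0401). In double-KO-labelled libraries the change was 1.42-fold (log2 0.50 ± 0.14) at an adjusted p of 0.051, just above the threshold. Neither of the last 2 results was firm. Of 22 settings with the labels as given, *Tgfa* was called in 9 in *Nf2*-KO and in 8 in double-KO-labelled libraries, and leaving out any 1 library but control 2, double-KO-labelled 1 or double-KO-labelled 3 ended the *Nf2*-KO call. With the numbers in the file names as a block, the change in double-KO-labelled libraries was called (log2 0.52, adjusted p = 0.00938), so that 2 of 9 members were called there, against 2501 of 18053 genes. Whether these numbers pair the libraries could not be told.

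*Btc*, which binds EGFR and ERBB4, went the other way from its neighbors. It had 17.0, 16.4 and 15.9 CPM in control, 13.6, 10.7 and 11.4 CPM in *Rasa1*-KO-labelled, 8.10, 7.31 and 7.72 CPM in *Nf2*-KO, and 18.3, 18.7 and 19.0 CPM in double-KO-labelled libraries. No groups overlapped, and the order was double-KO-labelled, control, *Rasa1*-KO-labelled and *Nf2*-KO from high to low. *Btc* was 1.38-fold lower than control in *Rasa1*-KO-labelled (log2 -0.46 ± 0.11; adjusted p = 0.00589) and 2.13-fold lower in *Nf2*-KO (log2 -1.09 ± 0.11; adjusted p = 1.42e-05). The first call was lost with only these 2 groups in the fit (adjusted p = 0.0607). The step between double-KO-labelled and control did not pass (1.14-fold, adjusted p = 0.361). *Btc* was also the only member to differ between *Rasa1*-KO-labelled and *Nf2*-KO, 1.54-fold higher in the first (adjusted p = 0.00985), where 3.66% of all genes were called. That call ended without *Rasa1*-KO-labelled unnumbered (adjusted p = 0.0515), *Nf2*-KO 2 or *Nf2*-KO 3.

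**Figure D2:**
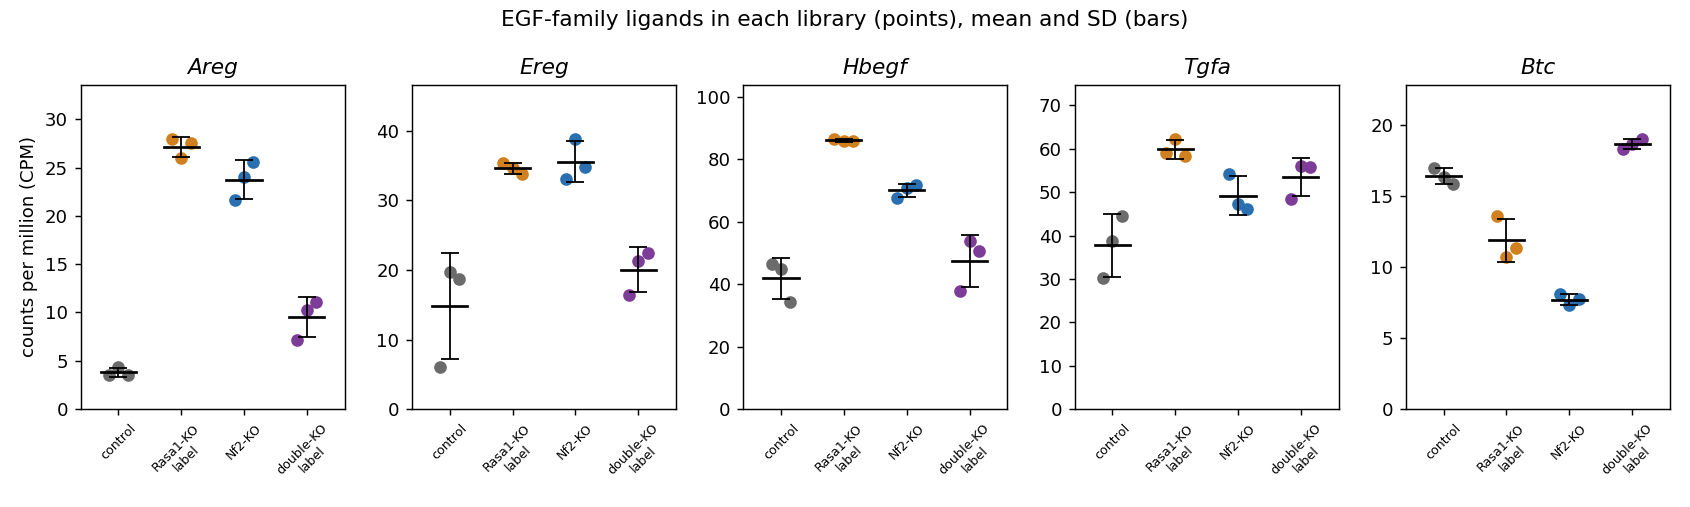
CPM of the 5 ligands in each library (points), with the mean and SD of each group of 3 (black lines and bars). The *Rasa1*-KO-labelled and *Nf2*-KO points of *Areg*, *Ereg*, *Hbegf* and *Tgfa* lie above every control point, and those of *Btc* lie below every control point.

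The make-up of the ligand transcripts was compared per length, in FPKM. Summed over the 5 ligands, the level was 36.8 ± 3.31 FPKM in control, 74.1 ± 1.01 FPKM in *Rasa1*-KO-labelled, 65.3 ± 2.19 FPKM in *Nf2*-KO and 45.3 ± 7.03 FPKM in double-KO-labelled libraries (SD, n = 3). *Hbegf* was the most abundant ligand in each group, with mean shares between 39.0% and 46.0% of the sum. *Areg* went from the lowest mean share in control (8.12% ± 0.433, though *Ereg* was lower in the unnumbered library, at 1.33 against 2.67 FPKM) to the next after *Hbegf* in *Rasa1*-KO-labelled (26.5% ± 0.784) and *Nf2*-KO (27.4% ± 1.63), and it made up 15.3% ± 1.42 in double-KO-labelled libraries. *Btc* went from 14.9% ± 1.22 in control to 4.90% ± 0.547 and 3.77% ± 0.283, and it was 12.9% ± 1.70 in double-KO-labelled libraries. The share of *Ereg* was between 9.24% and 12.1% on average in all groups, since its level moved with the sum. These shares are ratios within a library, do not depend on the scaling between libraries, and carry no test.

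**Figure D3:**
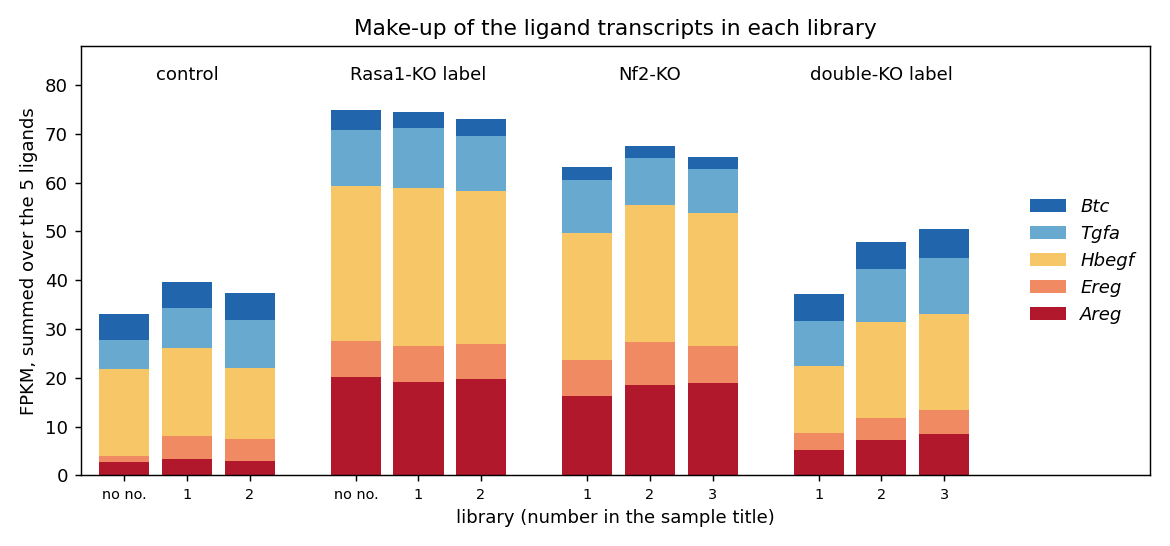
FPKM of the 5 ligands in each of the 12 libraries, stacked, so that the height of a bar is their sum. Bars of *Rasa1*-KO-labelled and *Nf2*-KO are between 63.1 and 74.9 FPKM high, above the other groups (at most 50.6 FPKM), and hold the widest *Areg* segments and the narrowest *Btc* segments.

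The receptors are described in the same way. *Met* was the member with the most RNA per length in every group, from 52.2 ± 1.48 FPKM in control to 36.2 ± 1.15 FPKM in *Rasa1*-KO-labelled libraries. *Egfr* had between 11.96 and 21.96 FPKM on average, *Erbb2* between 7.66 and 14.2 FPKM, and *Erbb3* between 2.69 and 4.36 FPKM. In *Rasa1*-KO-labelled 2 of the 4 receptors fell, in *Nf2*-KO 3 of the 4, and in double-KO-labelled libraries 0 of the 4 were called. Of all genes 22.2% were lower in each of the first 2 comparisons, and 6.46% were called in the last.

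*Erbb2*, the preferred partner of the other ERBB receptors, had 60.5, 80.1 and 80.2 CPM in control, 42.4, 46.8 and 42.6 CPM in *Rasa1*-KO-labelled, 44.0, 39.6 and 41.6 CPM in *Nf2*-KO, and 69.8, 72.0 and 70.1 CPM in double-KO-labelled libraries. *Rasa1*-KO-labelled and *Nf2*-KO overlapped each other and lay below every library of the other groups. *Erbb2* was 1.67-fold lower than control in the first (log2 -0.74 ± 0.11; adjusted p = 0.000381) and 1.76-fold lower in the second (log2 -0.82 ± 0.11; adjusted p = 0.000158). Both calls held in all 22 settings with the labels as given, as did those of *Areg* and *Hbegf* in these groups. In double-KO-labelled libraries the level was close to control (log2 -0.06 ± 0.11; adjusted p = 0.819).

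*Met*, the hepatocyte growth factor receptor, had 391, 350.1 and 345 CPM in control, 279.9, 274 and 265 CPM in *Rasa1*-KO-labelled, 273, 279.9 and 259 CPM in *Nf2*-KO, and 349, 299.6 and 311 CPM in double-KO-labelled libraries. The first and last groups overlapped, and the other 2 lay below both. *Met* was 1.33-fold lower in *Rasa1*-KO-labelled (log2 -0.41 ± 0.09; adjusted p = 0.00527) and 1.34-fold lower in *Nf2*-KO (log2 -0.42 ± 0.09; adjusted p = 0.00405). The first of these calls was lost with only the 2 groups in the fit (adjusted p = 0.0576).

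*Erbb3*, the receptor that couples most directly to PI3K, had 17.3, 33.1 and 30.8 CPM in control, 27.4, 28.2 and 26.2 CPM in *Rasa1*-KO-labelled, 17.5, 18.0 and 17.4 CPM in *Nf2*-KO, and 20.4, 29.7 and 29.0 CPM in double-KO-labelled libraries. The unnumbered control library was as low as *Nf2*-KO. The fall of 1.54-fold in *Nf2*-KO (log2 -0.62 ± 0.21; adjusted p = 0.0346) was therefore between overlapping groups, and it was called in 14 of 22 settings. Leaving out control 1 (adjusted p = 0.143), control 2 or any 1 *Nf2*-KO library ended the call. Without the unnumbered control library it was larger (log2 -0.86). Without both libraries that stood apart, *Erbb3* was also lower in *Rasa1*-KO-labelled (log2 -0.23, adjusted p = 0.0182), where the estimate from all libraries was 0.01.

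*Egfr*, the receptor of all 5 ligands, passed in no comparison. It had 51.6, 121 and 111 CPM in control, 70.3, 73.3 and 68.1 CPM in *Rasa1*-KO-labelled, 127, 122 and 116 CPM in *Nf2*-KO, and 84.5, 121 and 124 CPM in double-KO-labelled libraries. The unnumbered control library was the lowest of all 12, and library 1 of the double-KO label was the lowest of its group. Without that control library, *Egfr* was lower in *Rasa1*-KO-labelled (log2 -0.72, adjusted p = 0.000645), against -0.42 ± 0.25 (adjusted p = 0.204) with it. *Rasa1*-KO-labelled did not overlap *Nf2*-KO, but the difference did not pass (log2 -0.78 ± 0.26; adjusted p = 0.135). It was called at about the same size without the unnumbered control library (log2 -0.79, adjusted p = 0.0015) and without both libraries that stood apart (adjusted p = 8.48e-06). It was also called by DESeq2 (adjusted p = 0.0342), with only these groups in the fit (adjusted p = 1.15e-05) and with the file-name numbers as a block (adjusted p = 0.00515).

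**Figure D4:**
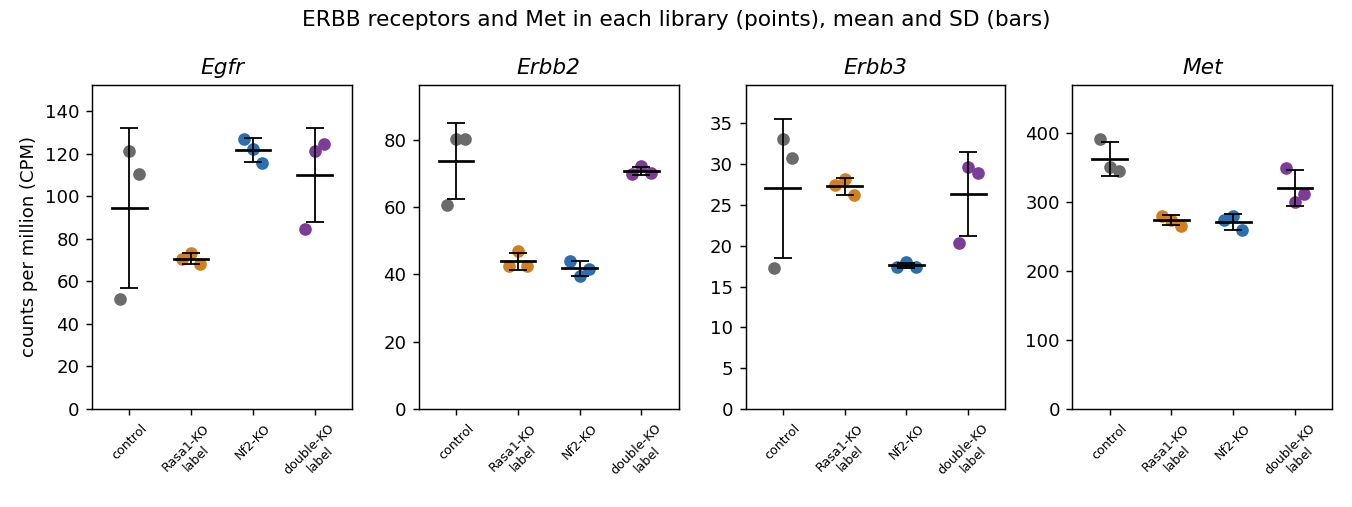
CPM of the 4 receptors in each library (points), with the mean and SD of each group of 3 (black lines and bars). *Erbb2* and *Met* are lower in *Rasa1*-KO-labelled and *Nf2*-KO than in every control library, and the lowest control points of *Egfr* (51.6 CPM) and *Erbb3* (17.3 CPM) are the unnumbered library.

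Between the knockouts, double-KO-labelled cells differed from both other groups in the same 4 members. Against *Rasa1*-KO-labelled, *Areg* was 2.85-fold lower (adjusted p = 4.92e-05) and *Hbegf* 1.82-fold lower (adjusted p = 0.00105), while *Btc* was 1.57-fold higher (adjusted p = 0.00118) and *Erbb2* 1.61-fold higher (adjusted p = 0.00109). These are 4 of 9 members, against 30.3% of all genes. Against *Nf2*-KO, *Areg* was 2.49-fold lower (adjusted p = 7.56e-05), *Hbegf* 1.48-fold lower (adjusted p = 0.0103), *Btc* 2.42-fold higher (adjusted p = 7.8e-06) and *Erbb2* 1.69-fold higher (adjusted p = 0.000395), again 4 of 9, against 32.2% of all genes. *Ereg* lay lower in double-KO-labelled libraries than in both groups without overlap, but did not pass (adjusted p = 0.0882 and 0.0724). Without the unnumbered control library, 7 of 9 members were called in each of these comparisons, *Ereg* among them (adjusted p = 0.000111 and 6.04e-05). Calls rose over all genes too, to 8436 and 8627 of 18180, from 5464 and 5820 of 18053 with all libraries. Both comparisons use the same double-KO-labelled libraries. With the labels exchanged, every difference of double-KO from *Rasa1*-KO has the opposite sign.

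The departure from additivity, the log2 change with both knockouts minus the sum of the changes with each, depended on the labels. By RNA, only *Rasa1* was low under the double-KO label, and with the labels as given *Nf2* itself departed by 4.41 ± 0.13. With these labels the contrast may therefore not measure how the knockouts combine. With the labels as given, 7 of 9 members departed, against 52.4% of all genes, with *Areg* at -4.16 ± 0.23 (adjusted p = 8.49e-08) and *Btc* at 1.74 ± 0.16 (adjusted p = 3.59e-06). With both labels exchanged, 1 of 9 did, against 6.41% of all genes. That was *Areg*, at -1.13 ± 0.22 (adjusted p = 0.0113), so it departed downward under either naming. The other estimates with exchanged labels were between -1.004 for *Egfr* (adjusted p = 0.135) and 0.67 for *Erbb3* (adjusted p = 0.243).

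Around the receptors, 65 genes in 6 lists were looked up and 59 were tested. In *Rasa1*-KO-labelled 9 were higher and 17 lower, in *Nf2*-KO 14 were higher and 22 lower, and in double-KO-labelled libraries 3 were higher and 2 lower. Of all genes, 19.7% were higher and 22.2% lower in the first comparison, 20.6% and 22.2% in the second, and 6.46% were called in the third. The median log2 change of all genes was -0.08, -0.07 and -0.04 in these comparisons. Genes named below are those called with the largest changes in each list.

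Among the other EGF-family ligands, 4 of 7 listed genes were in the tables. *Erbb4*, *Epgn* and *Nrg3* were not analysed here. *Egf* itself was 0.30-fold of control in *Rasa1*-KO-labelled (adjusted p = 0.000115) and 0.46-fold in *Nf2*-KO (adjusted p = 0.00169), from a low level of 2.24 ± 0.412 CPM. *Nrg4*, a ligand of ERBB4, was lower in all 3 groups, by log2 -1.26, -1.85 and -0.70 in *Rasa1*-KO-labelled, *Nf2*-KO and double-KO-labelled libraries. *Nrg1*, a ligand of ERBB3 and ERBB4, rose 2.95-fold in *Nf2*-KO (adjusted p = 0.00137), to 72.1 ± 7.67 CPM from 24.5 ± 11.3 CPM. In *Rasa1*-KO-labelled its change of 1.61-fold did not pass (adjusted p = 0.0775).

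In the HGF/MET list, 7 of 10 genes were tested, 1 rose in each comparison, and 4 fell in *Rasa1*-KO-labelled, 5 in *Nf2*-KO and 0 in double-KO-labelled libraries. The list medians were -0.59, -1.26 and 0.46. *Mst1r* (RON), the closest relative of *Met*, was 0.30-fold of control in *Rasa1*-KO-labelled (adjusted p = 4.35e-05) and 0.27-fold in *Nf2*-KO (adjusted p = 1.53e-05). *Plxnb1*, a semaphorin receptor that associates with MET, was 0.27-fold and 0.34-fold (adjusted p = 1e-06 and 2.3e-06) and rose 1.45-fold in double-KO-labelled libraries (adjusted p = 0.0228). *Spint2*, an inhibitor of proteases that activate HGF, was 0.61-fold and 0.34-fold (adjusted p = 0.00245 and 7.55e-06). *Mst1*, the ligand of MST1R, rose 6.64-fold and 11.8-fold, but only from 0.1001 to 0.706 and 1.25 CPM. *Hgf* was not analysed here.

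In the ligand shedding list of 12 genes, 4 rose in *Rasa1*-KO-labelled and 2 fell, 4 rose and 4 fell in *Nf2*-KO, and 1 rose in double-KO-labelled libraries. The most changed was not a protease: *Timp3*, an inhibitor of ADAM17, rose 4.60-fold, 8.97-fold and 2.99-fold in *Rasa1*-KO-labelled, *Nf2*-KO and double-KO-labelled libraries (adjusted p = 9.06e-05, 5.74e-06 and 0.00566). *Adam8* rose 2.63-fold and 2.09-fold in the first 2 groups (adjusted p = 0.000166 and 0.000905), and *Adam12* 1.97-fold and 2.63-fold (adjusted p = 0.000405 and 2.33e-05). *Adam19* was called only in *Rasa1*-KO-labelled, at 1.35 ± 0.300 CPM.

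In the receptor restraint list of 14 genes, 6 fell in *Rasa1*-KO-labelled and 6 in *Nf2*-KO, 1 and 2 rose, and none was called in double-KO-labelled libraries. The ubiquitin ligase *Cbl*, which marks activated EGFR for degradation, was 0.37-fold and 0.36-fold of control (adjusted p = 0.0199 and 0.017), with control libraries spread at 65.0 ± 39.3 CPM. *Cblc*, an epithelial relative, was 0.29-fold and 0.12-fold (adjusted p = 0.0026 and 8.19e-05), and the adaptor *Dok2* 0.44-fold and 0.20-fold, from 1.42 CPM in control. *Errfi1* (MIG6), a feedback inhibitor of EGFR, was the exception with the highest level: it rose from 123 ± 17.2 CPM to 263 ± 8.25 and 294 ± 5.64 CPM (adjusted p = 2.75e-05 and 6.86e-06).

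Of 12 adaptors between receptors and Ras, 1 rose and 3 fell in *Rasa1*-KO-labelled, 3 rose and 3 fell in *Nf2*-KO, and 1 fell in double-KO-labelled libraries. One of these is *Rasa1* itself, the targeted gene. *Grb7*, which binds ERBB2, was 0.56-fold and 0.39-fold of control (adjusted p = 4.84e-05 and 1.01e-06). *Gab1*, a docking protein of MET and EGFR, was 0.48-fold and 0.56-fold (adjusted p = 0.00307 and 0.0103), and *Eps8*, an EGFR substrate, rose 1.87-fold and 1.75-fold (adjusted p = 2.82e-05 and 4.34e-05).

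Of the 10 genes of Ras, Raf, MEK and ERK, 2 rose in *Rasa1*-KO-labelled, 3 rose and 2 fell in *Nf2*-KO, and 1 rose in double-KO-labelled libraries. *Map2k1*, which encodes MEK1, rose in all 3 groups, by 2.36-fold, 2.45-fold and 1.56-fold (adjusted p = 3.62e-05, 1.84e-05 and 0.017). In *Nf2*-KO the other named changes were small: *Mapk3* 0.78-fold and *Nras* 1.27-fold (adjusted p = 0.0166 and 0.0188).

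**Figure D5:**
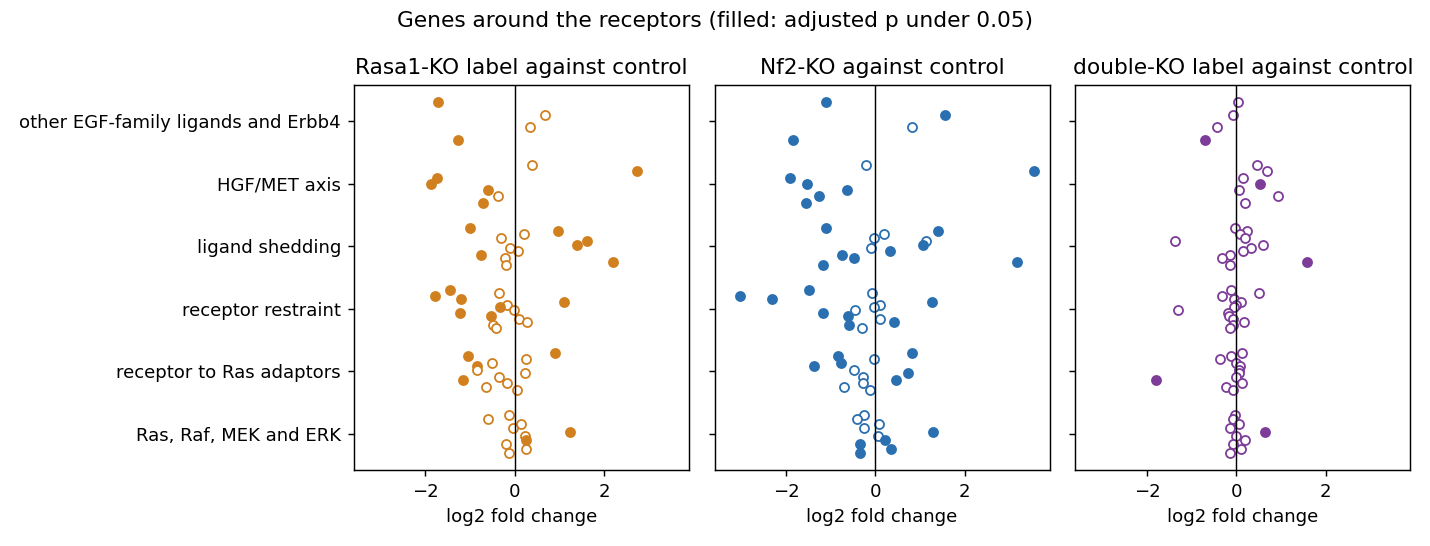
Log2 fold change against control of the 59 tested genes of 6 lists around the receptors, 1 point a gene and 1 panel a comparison; filled points have an adjusted p under 0.05. Filled points are on both sides of 0 in the first 2 panels (9 higher and 17 lower, 14 higher and 22 lower), and only 5 are filled in the panel of the double-KO label.

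Genes beside the members on the chromosomes were compared as the 3 nearest tested protein-coding genes on each side. Of 54 such places, held by 45 genes with members among them, 16 were higher and 11 lower in *Rasa1*-KO-labelled, 14 and 11 in *Nf2*-KO, and 5 and 3 in double-KO-labelled libraries. The shares of all genes are those given above, 19.7% and 22.2%, 20.6% and 22.2%, and 6.46% for both directions together. Beyond *Btc*, *Parm1* fell in all 3 groups (log2 -1.97, -2.48 and -0.67) and *Odaph* rose in all 3 (1.84, 1.76 and 1.59), so neighbors in this stretch moved both ways. Around *Erbb2*, *Stard3* (log2 -0.53 and -0.64), *Pgap3* (-0.79 and -0.89) and *Grb7* (-0.84 and -1.37) fell with it in *Rasa1*-KO-labelled and *Nf2*-KO, and no neighbor rose. Beside *Met*, which fell, the caveolin gene *Cav1* rose by log2 3.06, 3.37 and 0.84 in the 3 groups. *Tes* (0.92 and 0.60) rose there in *Rasa1*-KO-labelled and *Nf2*-KO.

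Called neighbors of the other members moved in either direction. Beside *Hbegf*, *Pfdn1* was higher (log2 0.79 and 0.76) and *Eif4ebp3* lower (-0.84 and -0.83) in *Rasa1*-KO-labelled and *Nf2*-KO, and *Igip* was lower in *Nf2*-KO (-0.79). Beside *Tgfa*, *Fam136a* was higher in both (1.27 and 0.84) and *Add2* lower in *Nf2*-KO (-1.11). On the side of *Egfr* before its start, *Grb10*, with 4714775 bp between them, was higher in all 3 groups (0.89, 0.54 and 0.80) and *Sec61g* in the first 2 (0.79 and 0.81), with *Fbxo48* lower in *Rasa1*-KO-labelled (-0.99). Beside *Erbb3*, the ribosomal protein genes *Rpl41* (0.83 and 0.70) and *Rps26* (1.08 in both) were higher in the first 2 groups and *Suox* in *Rasa1*-KO-labelled (0.53). Near *Met*, *Cav2* (0.81) and *Capza2* (0.55) were higher and *St7* lower (-0.42) in *Rasa1*-KO-labelled, and *Wnt2* was higher in *Nf2*-KO (2.32).

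The genes most like each of the 7 members that differed over the groups, which leaves out *Egfr* and *Erbb3*, by Pearson's r of log2 CPM over the 12 libraries among 13874 protein-coding genes, are given as a description. They were *Ripor2* (r = 0.993) and *Lonrf3* (0.991) for *Areg*, *Repin1* (0.986) and *Morc4* (0.985) for *Ereg*, and the linker histone genes *H1f4* (0.980) and *H1f2* (0.979) for *Hbegf*. For *Tgfa* they were *Dusp7* (0.980), a phosphatase of ERK, and *Nptx1* (0.950), and for *Btc* *Hook1* (0.991) and *E230025N22Rik* (0.985). *Myo18a* (0.996) and *Susd6* (0.995) were most like *Erbb2*, and *Gcc2* (0.991) and *Zdhhc17* (0.983) most like *Met*. The 12 libraries fall into 4 groups, so these values largely restate the differences between groups.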

How the data were processed

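RNA of 12 libraries of S1 tumorspheres was analysed, grouped by the labels of the samples. Per the submitters' processing notes, Trimmomatic 0.38 removed adapters and poor bases, HISAT2 2.1.0 placed the reads on mm10, SAMtools 1.9 sorted the alignments, and StringTie 2.1.3b quantified RefSeq genes. They deposited raw read counts per gene, FPKM (scaled to transcript length and mapped reads) and TPM, the same scaled to a fixed sum. The tables also hold deposited log2 values transformed across libraries, which were not used. Every gene in the tables has counts in every library.

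The tests ran on the counts in edgeR 4.0.16 (R 4.3.3), with filterByExpr, TMM, and 1 quasi-likelihood fit over 12 libraries, with Benjamini-Hochberg adjustment over 18053 genes. FPKM served for levels between genes, and log2 CPM (prior count 2) for likeness. Libraries of a group all differed by more than sampling noise. Replicate numbers in the titles did not pair the libraries. Those in the file names went with correlated deviations from the group mean between control and double-KO-labelled libraries (0.626, 0.313 and 0.444) and between no other groups. The first value is between the libraries that stood apart. Control 2 with double-KO-labelled 2, which the file names do not match, had 0.399. Whether the file-name numbers pair the libraries therefore could not be told. With 3 libraries against 3, an exact permutation test of a gene cannot go below p = 0.1, so none is given. The members and lists were chosen with earlier results of these data known. Named were all members, both targeted genes, at most 4 called genes per list with the largest change against control, the 3 nearest genes on each side where called, and the 2 genes most alike. A gene that the rule names in 1 list is not reported here. Alternatives were RLE, no filter on low counts, DESeq2 1.42.0, limma 3.58.1 on log2(FPKM + 1) and log2(FPKM + 0.1), only the groups compared, exchanged labels, replicate blocks, TPM and each library left out. Tested on simulated data for *Nf2*-KO against control, the code called 193 of 200 genes changed 4-fold among 17968. Promoters are from RefSeq (GRCm38.p6). Figures were drawn with matplotlib 3.10.9.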

Additional observations from a re-analysis of the deposited data

Results flagged for a closer look

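The result of the test of additivity in the edgeR fit depended on the labels of the groups. By their RNA, only *Rasa1* was low under the double-KO label. With the labels as given, the contrast may therefore not measure how the knockouts combine. With the labels as given, the departures on the log2 scale were -4.16 for *Areg*, -2.05 for *Ereg*, -1.60 for *Hbegf*, -0.55 for *Tgfa*, 1.74 for *Btc*, 1.503 for *Erbb2* and 0.65 for *Met*, where 52.4% of all genes departed. With the *Rasa1*-KO and double-KO labels exchanged, only *Areg* departed, at -1.13 (adjusted p = 0.0113), where 6.41% of all genes did. Without both libraries that stood apart, a choice made after seeing the data, the departure of *Areg* with the labels as given was -3.94 and that of *Btc* 1.73. *Nf2* RNA goes against the labels of these groups, and why was not tested. No outlier test of single values was made, since each group has 3 libraries.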

How the results depend on the processing

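Under the labels as given, the calls of *Areg*, *Hbegf* and *Erbb2* in *Rasa1*-KO-labelled and *Nf2*-KO, of *Btc* and *Met* in *Nf2*-KO and of *Tgfa* in *Rasa1*-KO-labelled libraries held in all 22 settings run. Of the members' log2 fold changes under alternatives, 1213 kept direction and side of the threshold, 66 gained a call, 50 lost one and 48 reversed, 21 of them with the labels exchanged.

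The counts of members called, of 9, moved with the samples in the fit, the call rule and the labels. With only the groups compared, 4 in place of 7 were called in *Rasa1*-KO-labelled against control, 5 in place of 8 in *Nf2*-KO against control and 0 in place of 1 in double-KO-labelled against control. Of all genes, 4532 of 17735, 5130 of 17739 and 18 of 17642 were called there, in place of 7569, 7721 and 1166 of 18053. In this setting, 7 in place of 4 were called between double-KO-labelled and *Rasa1*-KO-labelled and 5 in place of 1 between *Rasa1*-KO-labelled and *Nf2*-KO. Of all genes, 8306 of 17582 and 4527 of 17550 were called there, in place of 5464 and 661 of 18053. Each of these fits took its spread from the groups compared alone, whether calls were lost or gained. In double-KO-labelled against control, RLE, no filter on low counts and DESeq2 gave 2 each, with 1136 of 18053, 1041 of 18926 and 2107 of 17816 genes called. In *Rasa1*-KO-labelled against *Nf2*-KO DESeq2 gave 2, with 1428 of 16348 genes called. By the call rule of the study (a change of 3-fold or more), the counts were 1 in *Rasa1*-KO-labelled and 1 in *Nf2*-KO against control, 0 in double-KO-labelled against control, 0 in each comparison between knockouts, and 4 for the departure from additivity. In the last, with the labels as given, 4554 of 18053 genes passed this rule.

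Leaving out 1 library at a time gave between 1 and 2 calls in double-KO-labelled against control, between 4 and 7 against *Rasa1*-KO-labelled, between 4 and 7 against *Nf2*-KO, and between 0 and 3 in *Rasa1*-KO-labelled against *Nf2*-KO. The highest counts came without the unnumbered control library, and in double-KO-labelled against control also without control 2 or double-KO-labelled 1. Without the unnumbered control library, 5477, 8436, 8627 and 2220 of 18180 genes were called in these comparisons, in the same order. With all libraries, 1166, 5464, 5820 and 661 of 18053 were. Without both libraries that stood apart, chosen after seeing the data, 3 were called in double-KO-labelled against control, 5 in *Rasa1*-KO-labelled against *Nf2*-KO and 7 in double-KO-labelled against *Nf2*-KO, and *Erbb3* in *Rasa1*-KO-labelled against control turned to -0.23. In that setting *Egfr* between double-KO-labelled and *Nf2*-KO (0.014) and *Erbb3* between double-KO-labelled and *Rasa1*-KO-labelled (0.10) also changed sign, uncalled. Why these libraries stood apart was not tested.

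Replicate numbers in the titles did not pair the libraries (correlations of deviations between -0.379 and 0.399). With the titles' numbers as a replicate block, 0 in place of 1 were called in *Rasa1*-KO-labelled against *Nf2*-KO, 7 in place of 8 in *Nf2*-KO against control, and the other counts were the same. Of all genes, 227 and 7431 of 18053 were called in these comparisons. With the numbers in the file names as a block, 3 were called in *Rasa1*-KO-labelled against *Nf2*-KO and 2 in double-KO-labelled against control. Of all genes, 1563 and 2501 of 18053 were called there. Whether the file-name numbers pair the libraries could not be told. With this block *Egfr* was called in *Rasa1*-KO-labelled against control (-0.59, adjusted p = 0.00596) and in double-KO-labelled against *Rasa1*-KO-labelled (0.88, adjusted p = 0.00129).

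The other sign changes were of values called neither before nor after. With the titles' replicate block they were, in *Rasa1*-KO-labelled against *Nf2*-KO, *Ereg* (0.28) and *Met* (-0.051). With the file names' block they were *Egfr* in double-KO-labelled against *Nf2*-KO (0.093) and *Erbb3* in *Rasa1*-KO-labelled against control (-0.15) and in double-KO-labelled against *Rasa1*-KO-labelled (0.15). With limma on log2(FPKM + 1) and log2(FPKM + 0.1) they were the departure of *Egfr* (-0.053 and -0.057), *Erbb3* in *Rasa1*-KO-labelled against control (-0.058 and -0.057) and *Met* in *Rasa1*-KO-labelled against *Nf2*-KO (-0.047 and -0.048). Leaving out 1 library, *Ereg* (-0.091 to 0.026) and *Met* (-0.020 to 0.037) in *Rasa1*-KO-labelled against *Nf2*-KO took either sign. So did *Egfr* (-0.074 to 0.46), *Erbb2* (-0.18 to 0.024) and *Erbb3* (-0.28 to 0.15) in double-KO-labelled against control, *Erbb3* in *Rasa1*-KO-labelled against control (-0.23 to 0.18), *Egfr* in double-KO-labelled against *Nf2*-KO (-0.25 to 0.014) and *Erbb3* in double-KO-labelled against *Rasa1*-KO-labelled (-0.15 to 0.10).

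Exchanging the *Rasa1*-KO and double-KO labels renames the comparisons. The counts became 1 for *Rasa1*-KO against control, 7 for double-KO against control, 4 for *Rasa1*-KO against *Nf2*-KO, 1 for double-KO against *Nf2*-KO and 1 for the departure from additivity. Log2 values of double-KO against *Rasa1*-KO reversed for every member: *Areg* (1.51), *Hbegf* (0.86), *Btc* (-0.65), *Erbb2* (-0.69), *Ereg* (0.79), *Tgfa* (0.16), *Egfr* (-0.64), *Erbb3* (0.051) and *Met* (-0.23). So did *Rasa1*-KO against *Nf2*-KO for *Areg* (-1.32) and *Hbegf* (-0.56), double-KO against *Nf2*-KO for *Areg* (0.19) and *Hbegf* (0.30), and the departure from additivity for *Hbegf* (0.12) and *Egfr* (-1.004). In *Rasa1*-KO and in double-KO against control, *Btc* became 0.19 and -0.46, *Egfr* 0.22 and -0.42, and *Erbb3* -0.039 and 0.012. Every member had at least 176 counts in each library, and 3 libraries a group limit the precision.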
